A study of Mus musculus with 6 samples.

Results

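The genes described here belong to the integrated stress response and to the metabolic routes it feeds: the transcription factor gene Atf4 and its partners and targets, the sestrins, the enzymes of serine synthesis and folate-borne carbon transfer, and the cytosolic aminoacyl-tRNA synthetases. They were taken as a list of 40 gene symbols, each represented by the probe with the highest mean among its probes on the array. Of these, 39 had a named probe and 32 were tested, because their probe was detected (p under 0.05 against negative controls) on 3 arrays or more. Over the whole array 9679 genes were tested. The RNA was that of B220+CD43+ cells sorted from mouse bone marrow, which the labels call pre-B cells. It was hybridised to single-colour Illumina BeadChips, 3 labelled Fnip1 -/- (Fnip1-null below) and 3 labelled wild type in the sample titles. The scanner columns read here are headed KO or WT, each with its own number that is not explained. KO was taken as Fnip1 -/-, the only mutant group in the titles. Fnip1 encodes a protein that binds folliculin and AMPK and takes part in lysosomal nutrient sensing. The KO headers also read LPAB and Yugioh, words that they do not explain and that the WT headers lack. Apart from this, the sources used here give neither the age and strain of the mice nor how the allele was made. They do not say whether each array held the RNA of a single animal either. The p-values therefore measure spread between arrays, which may be technical in part.

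The integrated stress response is a shared brake on protein synthesis. Kinases that sense unfolded protein, amino acid shortage or other stress phosphorylate the initiation factor eIF2alpha, general translation falls, and a few messages, among them that of ATF4, are translated better. ATF4 then dimerises with C/EBP proteins and switches on genes for amino acid supply, tRNA charging and redox balance, including serine synthesis and mitochondrial folate enzymes. The route is controlled largely at translation, so the Atf4 transcript is an imperfect guide to ATF4 protein, which an array does not measure.

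Values below are log2 intensities after background correction and quantile normalization, and a call is a limma p under 0.05 after Benjamini-Hochberg adjustment over all 18172 tested probes. Arrays are named A, B and C within a group, with no order implied. Between 17442 and 18294 of 45281 probes were detected per array, and the number of arrays limits the precision. Fnip1 itself was read as a check of the labels. Its brightest probe read 10.01, 9.97 and 10.06 on the arrays labelled Fnip1-null and 8.90, 9.11 and 9.16 on those labelled wild type, so the signal was higher under the null label (limma adjusted p = 0.000665; exact two-sided permutation p = 0.1, the smallest that 3 arrays against 3 allow). Both other tested Fnip1 probes were called higher too, without overlap (0.78 and 0.88, limma adjusted p = 0.00118 and 0.00851). No tested probe was lower under the null label, so this reading does not bear the labels out. Where the probes lie relative to the changed part of the gene is not given, and a probe outside it checks nothing. The directions below follow the labels. Array A of each group had male RNA by Xist and the Y-linked Eif2s3y, and arrays B and C had female RNA. Within each group array A therefore held RNA of other animals than B and C, while for B and C this is not known. Values with sex as a block are given where they change a call. Of 13 tested B-lineage markers, 5 fell (Cd79b, Ebf1, Vpreb3, Rag1 and Rag2), Pax5 was not detected on any array, and Cd79a was not analysed here. Summed intensity over the B-lineage list ran from 35472 to 42766 on the arrays labelled Fnip1-null and from 40562 to 47808 on those labelled wild type. For the T cell list, in which 2 of 6 tested markers were higher and Cd8a and Cd5 were not detected on any array, it ran from 2187 to 2980 and from 1516 to 1716. For the basophil, mast cell and eosinophil list, in which 2 of 6 were lower and Ms4a2 and Epx were not detected on any array, it ran from 646 to 1192 and from 1266 to 1636. Called markers of the myeloid and natural killer lists were lower under the Fnip1-null label. They were Prtn3 and Ctsg among 11 tested neutrophil markers, Cd14 and Ccr2 among 7 of monocytes and Eomes among 7 of natural killer cells. The neutrophil sum varied widely within the groups, from 12358 to 43970 on the arrays labelled Fnip1-null and from 11237 to 27204 on those labelled wild type. That of the monocyte list, in which Itgam was not detected on any array, ran from 6017 to 10490 and from 7625 to 9886. That of the natural killer list, in which Ncr1 and Gzmb were not detected on any array, ran from 3700 to 5097 and from 4514 to 6486. None of 3 tested erythroid and 7 tested plasmacytoid dendritic cell markers was called in limma (lowest unadjusted p = 0.236). The plasmacytoid sum was high in both groups, from 26564 to 34814 on the arrays labelled Fnip1-null and from 24081 to 32606 on those labelled wild type. In that list Ccr9 was not detected on any array. For the erythroid list, in which Epor was not detected on any array, the sum ran from 2729 to 5595 and from 4097 to 4488. The part of these cells in the results below was not tested, and in bulk RNA fewer cells of a type and less RNA per cell cannot be told apart.

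The list did not move as a unit. Of the 32 tested members 4 rose (Trib3, Psat1, Shmt1 and Ddit4) and 2 fell (Eif2ak3 and Mthfd2), against 7.86% of all tested genes called higher and 5.25% called lower. The median log2 fold change was 0.02 over the tested members and 0.01 over all tested genes. Member arrays separated without overlap for 8 genes toward higher and 7 toward lower values, against 18.1% and 14.9% of all tested genes (33% in either direction). With sex as a block the count of rises was 7 in place of 4, and the added genes were Ddit3, Phgdh and Eprs. In that fit 8.71% of all tested genes were called higher. The plot of fold changes by subgroup shows no call among the 12 tested synthetases and calls in 5 of the other 6 subgroups.

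**Figure D1:**
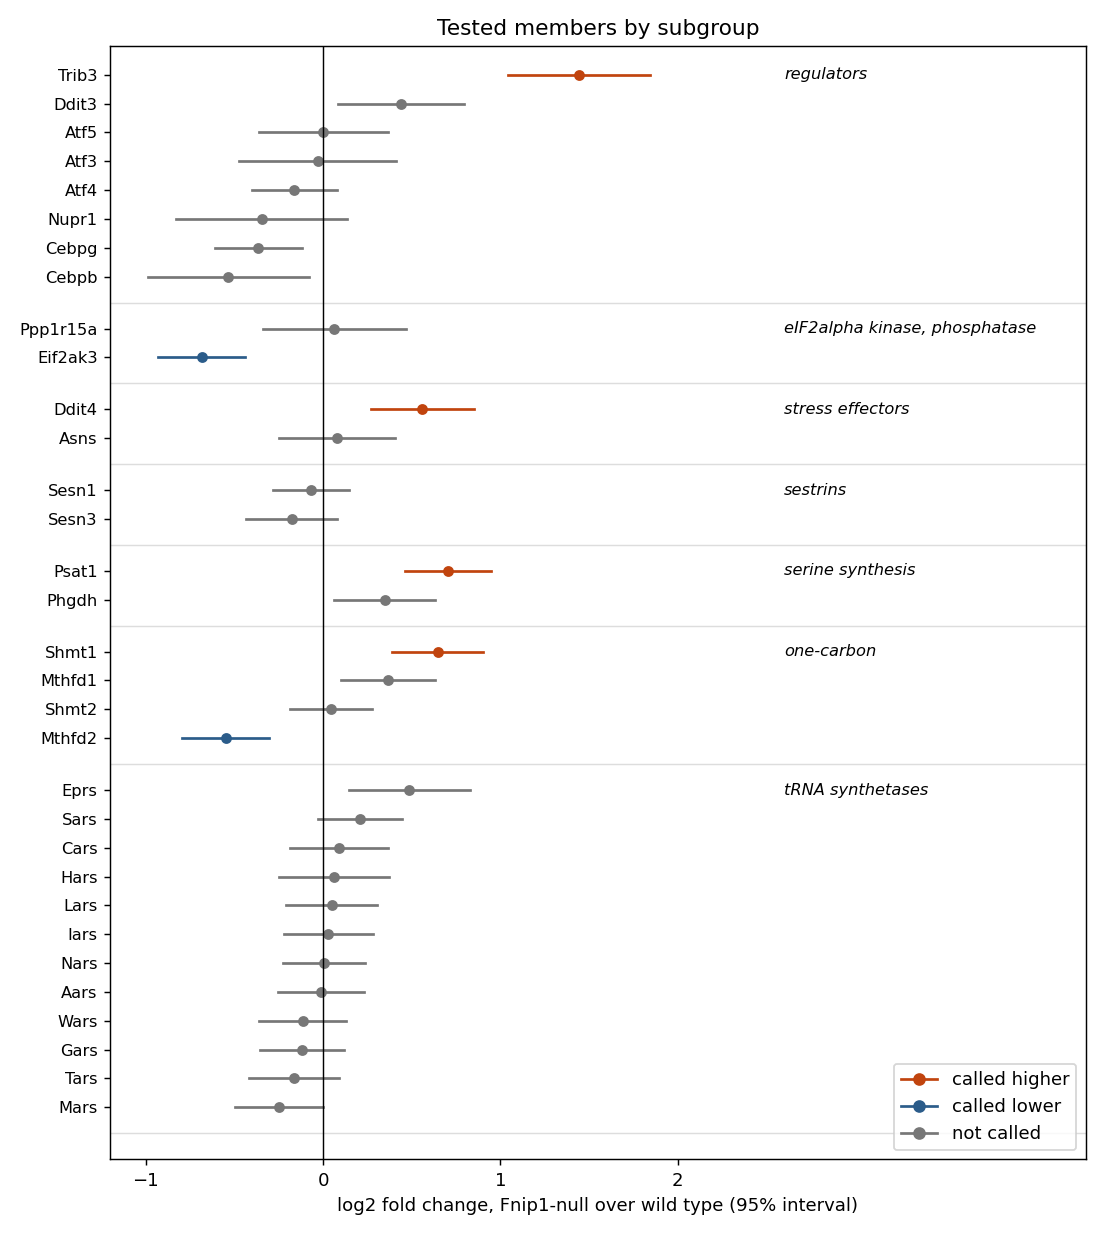
Log2 fold change (arrays labelled Fnip1-null over wild type, x axis) of each tested member, with 95% intervals from the moderated standard error, ordered by subgroup. Trib3 at 1.44 lies furthest from 0, Eif2ak3 at -0.68 is the lowest, and none of the 12 synthetases is called.

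The C/EBP-ATF response element, to which ATF4 dimers bind, was looked for in the members' promoters because it is the sequence that ties many of them to ATF4. The letters searched were TGATGNAA on either strand, in RefSeq windows (GRCm38.p6) of 250 bases before to 50 after each annotated start. Of 35 members with a window 12 held a match, against 4.51% of 27025 genes. The members include known ATF4 targets by choice, so this share is a description. Of the 6 called members 1 held a match (Trib3), and of 21 tested members with a window that were not called 7 did. A match from each of these tested members follows, 5′ to 3′ on the gene's strand, with the matched letters in capitals.
Trib3 (chr2:152344028-152344057, minus strand): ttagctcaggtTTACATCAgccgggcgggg
Asns (chr6:7693214-7693243, minus strand): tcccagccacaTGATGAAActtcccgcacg
Atf3 (chr1:191183425-191183454, minus strand): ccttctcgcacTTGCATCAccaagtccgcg
Nupr1 (chr7:126625562-126625591, minus strand): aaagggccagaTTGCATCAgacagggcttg
Aars (chr8:111033840-111033869, plus strand): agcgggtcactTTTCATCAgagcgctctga
Gars (chr6:55037960-55037989, plus strand): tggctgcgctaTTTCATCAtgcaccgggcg
Iars (chr13:49682126-49682155, plus strand): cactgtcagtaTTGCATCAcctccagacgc
Tars (chr15:11399655-11399684, minus strand): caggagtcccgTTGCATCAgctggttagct
The members not tested that held a match were Chac1, Pck2, Vldlr and Yars. Nothing about binding follows from a match or from its absence in this window.

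Among the regulators, Trib3 rose and no other was called by its brightest probe. Trib3, a pseudokinase gene that is a target of ATF4 and CHOP and restrains them, lies on chromosome 2 (152337425 to 152344060, GRCm38.p6). It read 7.76, 7.61 and 7.35 on the arrays labelled Fnip1-null and 6.51, 5.99 and 5.89 on those labelled wild type. Every array labelled Fnip1-null lay above every wild-type array, and within each group array A was the brightest. The fold was 2.72 (95% interval 2.06 to 3.59, limma adjusted p = 0.000965), and the call was kept under all 17 alternative settings, with log2 fold changes between 1.08 and 1.71. Its other tested probes gave smaller values. One stood at 0.38 (adjusted p = 0.209), and the other, detected on no wild-type array, was at least 1.31-fold higher (adjusted p = 0.0403).

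Atf4 and Ddit3, the upstream factor and the stress-linked factor CHOP, moved by amounts that depended on the probe. Atf4 read 11.70, 11.91 and 11.85 on the arrays labelled Fnip1-null and 12.05, 11.95 and 11.94 on the wild-type arrays by its brightest probe. These groups did not overlap, but the log2 difference of -0.16 (95% interval -0.40 to 0.08) did not pass (adjusted p = 0.359). A second Atf4 probe read 10.77, 10.53 and 10.64 against 11.22, 11.07 and 11.05 in wild type, and it was called lower (-0.47, adjusted p = 0.0238). Neither Atf4 probe was higher on the arrays labelled Fnip1-null. Ddit3 read 8.70, 8.34 and 8.11 on the arrays labelled Fnip1-null and 8.12, 7.85 and 7.87 on the wild-type arrays by its brightest probe. Here array C labelled Fnip1-null and array A labelled wild type overlapped, and the log2 fold change of 0.44 (SE 0.16) did not pass (adjusted p = 0.101). With sex as a block the same difference was called (adjusted p = 0.0327). The other Ddit3 probe showed no overlap, at 7.91, 7.64 and 7.68 on the arrays labelled Fnip1-null against 7.28, 7.18 and 7.10 in wild type, and was called higher (0.56, adjusted p = 0.0132). The annotated end of Ddit3 (chromosome 10, 127290793 to 127296291) overlaps that of the methionyl-tRNA synthetase gene Mars (127296221 to 127311786), and the files do not give probe positions.

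The C/EBP partners leaned lower without passing. Cebpg, a heterodimer partner of ATF4, read 9.39, 9.19 and 9.46 on the arrays labelled Fnip1-null and 9.70, 9.67 and 9.75 on the wild-type arrays. The groups did not overlap, and the difference of -0.36 lay just outside the threshold (adjusted p = 0.056). It was called under 5 of 17 alternatives. Cebpb, another C/EBP factor, was also lower without overlap, at 9.09, 8.64 and 8.68 on the arrays labelled Fnip1-null against 9.12, 9.79 and 9.10 in wild type (-0.53, adjusted p = 0.115). The gap between its nearest arrays was small, and the call appeared only with array weights (adjusted p = 0.035). For the stress-induced factors Atf3 and Atf5 and the chromatin-linked stress gene Nupr1 the groups overlapped, and the log2 fold changes were -0.03, 0.00 and -0.35 (adjusted p = 0.942, 0.995 and 0.327).

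**Figure D2:**
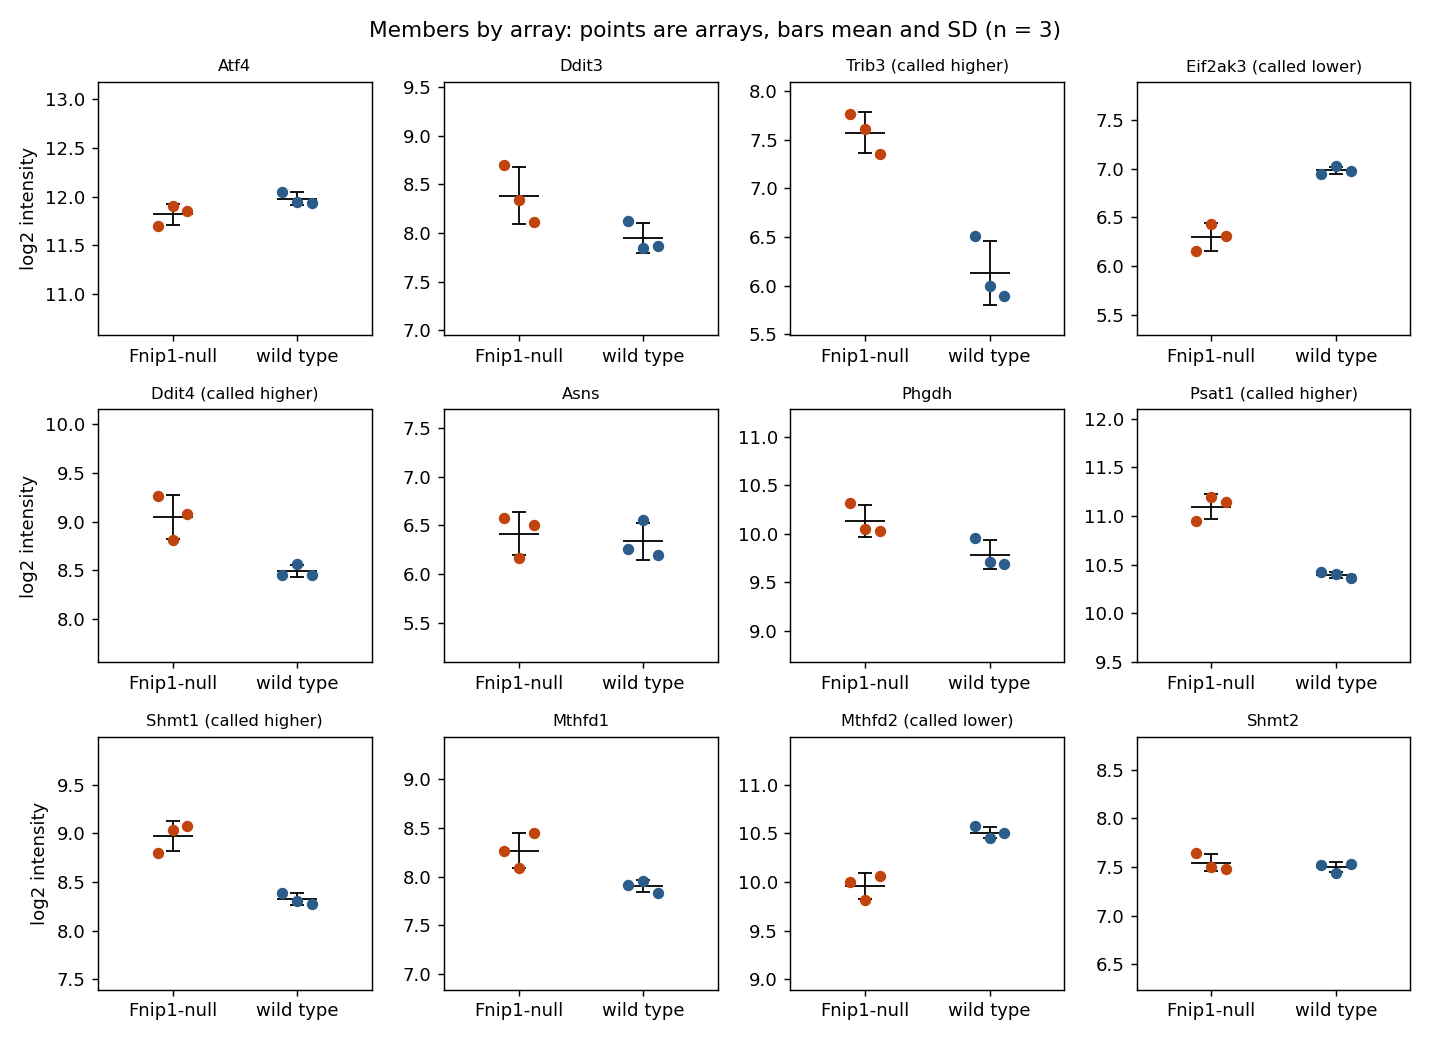
Log2 intensity on each array (points, y axis, every panel spanning the same range of log2 units) for 12 members, with the mean and SD of 3 arrays per group. The groups overlap for Ddit3, Asns and Shmt2 and lie apart for the rest, among them all 6 called members.

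Of the genes that set eIF2alpha phosphorylation, one kinase gene was lower. Eif2ak3, which encodes PERK, the kinase of the endoplasmic reticulum, lies on chromosome 6 (70844484 to 70905241). It read 6.15, 6.43 and 6.31 on the arrays labelled Fnip1-null and 6.95, 7.02 and 6.98 on the wild-type arrays. All arrays labelled Fnip1-null lay below the wild-type arrays, which differed little among themselves. The level was 1.61-fold lower (95% interval 1.35 to 1.91, limma adjusted p = 0.00398), and the call held under all 17 alternatives. Eif2ak4, which encodes the amino acid sensor GCN2, was not detected on any array and was not tested. Ppp1r15a, the stress-induced subunit (GADD34) that directs dephosphorylation of eIF2alpha, read 8.79, 8.32 and 8.04 on the arrays labelled Fnip1-null and 8.47, 8.22 and 8.27 on the wild-type arrays. Its groups overlapped (0.06, adjusted p = 0.861). Its constitutive counterpart Ppp1r15b, which is not a member, fell, at 7.03, 7.11 and 7.23 against 7.80, 7.76 and 7.85 in wild type (-0.68, adjusted p = 0.00297), under all 17 alternatives too.

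Among the stress effectors, Ddit4 rose and Asns did not pass. Ddit4 encodes REDD1, an inhibitor of mTORC1 that is induced by stress and hypoxia, on chromosome 10. It read 9.26, 8.81 and 9.07 on the arrays labelled Fnip1-null and 8.45, 8.56 and 8.46 on the wild-type arrays. The groups did not overlap, and the fold was 1.47 (95% interval 1.20 to 1.81, limma adjusted p = 0.0212). This call was the least steady of the 6. It was lost under 7 of 17 alternatives, with adjusted p of at most 0.0974. Among them were the fits without array A or C labelled Fnip1-null (adjusted p = 0.0549 and 0.0584) and without array A or C labelled wild type (0.0647 and 0.0616), while the log2 fold change stayed between 0.45 and 0.68 over all alternatives. Asns, the asparagine synthetase gene and a standard ATF4 target, read 6.57, 6.17 and 6.51 on the arrays labelled Fnip1-null and 6.26, 6.55 and 6.20 on the wild-type arrays. The groups overlapped, and the interval of the difference ran from -0.25 to 0.41 on the log2 scale. Chac1, which degrades glutathione, the mitochondrial carboxykinase gene Pck2 and the lipoprotein receptor gene Vldlr were not detected on any array, so whether they differed was not detectable here. The Chac1 signal, at background, was 4.65, 4.53 and 4.28 on the arrays labelled Fnip1-null and 4.38, 4.57 and 4.45 on the wild-type arrays.

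No sestrin was called. Sestrins restrain mTORC1, and SESN2 is a leucine sensor. Sesn1 read 10.18, 10.22 and 10.16 on the arrays labelled Fnip1-null and 10.26, 10.25 and 10.25 on the wild-type arrays, apart but by only -0.07 on the log2 scale (95% interval -0.28 to 0.15, adjusted p = 0.697). Another Sesn1 probe stood at -0.39 (adjusted p = 0.061) and a further one at -0.03. Sesn3 overlapped between groups, at 5.57, 5.48 and 5.34 on the arrays labelled Fnip1-null against 5.73, 5.70 and 5.50 in wild type (-0.18, adjusted p = 0.351). Sesn2, the member most tied to ATF4, was detected on 1 array of each group and was not tested. Its signal was 5.25, 4.59 and 4.58 on the arrays labelled Fnip1-null and 4.74, 4.58 and 5.10 on the wild-type arrays, which overlap.

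Both tested enzymes of serine synthesis were higher without overlap, and 1 of them passed. Of all tested genes 18.1% were higher without overlap and 7.86% were called higher. Psat1, the aminotransferase of the middle step, lies on chromosome 19 (15905123 to 15925059). It read 10.95, 11.20 and 11.15 on the arrays labelled Fnip1-null and 10.42, 10.40 and 10.36 on the wild-type arrays. All arrays labelled Fnip1-null were higher, by more than the spread within either group, with a fold of 1.63 (95% interval 1.38 to 1.93, limma adjusted p = 0.00319). The call was kept under all 17 alternatives. Phgdh, the dehydrogenase of the first step, read 10.32, 10.05 and 10.03 on the arrays labelled Fnip1-null and 9.96, 9.71 and 9.69 on the wild-type arrays. Array A was the brightest of each group, and the log2 fold change of 0.35 (SE 0.13) passed only with sex as a block (adjusted p = 0.0454, against 0.105 without it). Psph, the phosphatase of the last step, was not detected on any array, with signals of 4.37, 4.28 and 4.20 under the Fnip1-null label and 4.27, 4.25 and 4.32 under the wild-type label.

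Folate enzymes differed in direction, and of the 4 tested members 1 was called higher and 1 lower, against 7.86% and 5.25% of all tested genes. Shmt1, the cytosolic serine hydroxymethyltransferase, which passes a carbon unit from serine to folate, lies on chromosome 11 (60788897 to 60811265). It read 8.80, 9.04 and 9.08 on the arrays labelled Fnip1-null and 8.39, 8.31 and 8.27 on the wild-type arrays. The groups did not overlap, the fold was 1.57 (95% interval 1.31 to 1.87, limma adjusted p = 0.00608), and a second probe gave nearly the same log2 fold change (0.64 beside 0.65, adjusted p = 0.00568). Its mitochondrial counterpart Shmt2 overlapped between groups, at 7.64, 7.50 and 7.48 on the arrays labelled Fnip1-null against 7.52, 7.44 and 7.53 in wild type (0.04, 95% interval -0.19 to 0.27). Mthfd2, the mitochondrial dehydrogenase and cyclohydrolase and an ATF4 target, lies on chromosome 6 (83305704 to 83326011). It read 10.00, 9.82 and 10.06 on the arrays labelled Fnip1-null and 10.57, 10.45 and 10.50 on the wild-type arrays. It was lower on every array labelled Fnip1-null, 1.46-fold (95% interval 1.23 to 1.73, limma adjusted p = 0.0108), and its second probe was called lower as well (-0.45, adjusted p = 0.0228). Mthfd1, the cytosolic enzyme of the same steps, read 8.26, 8.09 and 8.44 on the arrays labelled Fnip1-null and 7.92, 7.96 and 7.83 on the wild-type arrays. It was higher without overlap by both tested probes (0.37 and 0.36), and neither passed (adjusted p = 0.0723 and 0.0604). Mthfd1 was called under 2 of 17 alternatives (lowest limma adjusted p = 0.0496). The mitochondrial formate producer Mthfd1l had no probe in the table used here. A difference between the cytosolic and the mitochondrial enzymes as groups was not tested.

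None of the 12 tested cytosolic synthetases was called by its brightest probe in limma, 2 of them having an unadjusted p under 0.05 (Eprs and Mars), as did 27.3% of all tested genes. These enzymes charge tRNAs with their amino acids, and several are ATF4 targets. Their log2 fold changes ran from -0.25 for Mars to 0.49 for Eprs, with a median of 0.02. Aars, the alanyl enzyme with a matched promoter site above, read 9.64, 9.55 and 9.76 on the arrays labelled Fnip1-null and 9.61, 9.62 and 9.77 on the wild-type arrays, and the interval of its difference ran from -0.26 to 0.23. Those of Iars, Gars and Tars, which hold a match as well, ran from -0.22 to 0.28, from -0.35 to 0.12 and from -0.42 to 0.09. By these brightest probes the groups overlapped for all 4. Another Iars probe was higher without overlap and did not pass (0.16, adjusted p = 0.346). For Mars the arrays lay apart, at 9.09, 9.13 and 9.34 on those labelled Fnip1-null against 9.45, 9.48 and 9.38 in wild type (-0.25, adjusted p = 0.173). For Sars, the seryl enzyme, they lay apart as well, at 8.30, 8.38 and 8.23 against 8.04, 8.20 and 8.04 in wild type (0.21, adjusted p = 0.234). The remaining cysteinyl, histidyl, leucyl, asparaginyl and tryptophanyl genes are Cars, Hars, Lars, Nars and Wars. By their brightest probes they overlapped between groups, with log2 fold changes between -0.11 and 0.09. Another Lars probe was higher without overlap and did not pass (0.32, adjusted p = 0.0685). Other Wars probes are given below. Yars was detected on 1 wild-type array only and was not tested.

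Probes of a single gene disagreed in direction for Eprs and in call for Wars. Eprs, the glutamyl-prolyl enzyme, read 7.32, 6.92 and 7.07 on the arrays labelled Fnip1-null and 6.89, 6.49 and 6.47 on the wild-type arrays by its brightest probe, without overlap (0.49, adjusted p = 0.0639, and 0.0149 with sex as a block). Eprs was called under 6 of 17 alternatives. Among them were the fit without array A labelled wild type (0.62, adjusted p = 0.033) and the choice of the probe of largest variance. That other probe turned the other way and was called lower (-0.55, adjusted p = 0.026), and the remaining one stood at -0.16. No direction can therefore be given for Eprs. Wars, the tryptophanyl enzyme, did not pass by its brightest probe (-0.11, adjusted p = 0.544), while 2 others of its 4 tested probes were called lower (-0.72 and -0.34, adjusted p = 0.0101 and 0.0446). The remaining Wars probe stood at -0.19, so all 4 leaned lower. Over all members 53 probes were tested, 7 were called higher and 7 lower, against 7.7% and 6.51% of all tested probes, and 4 members had a call only on a probe other than the brightest (Atf4, Ddit3, Eprs and Wars). None had called probes in both directions.

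**Figure D3:**
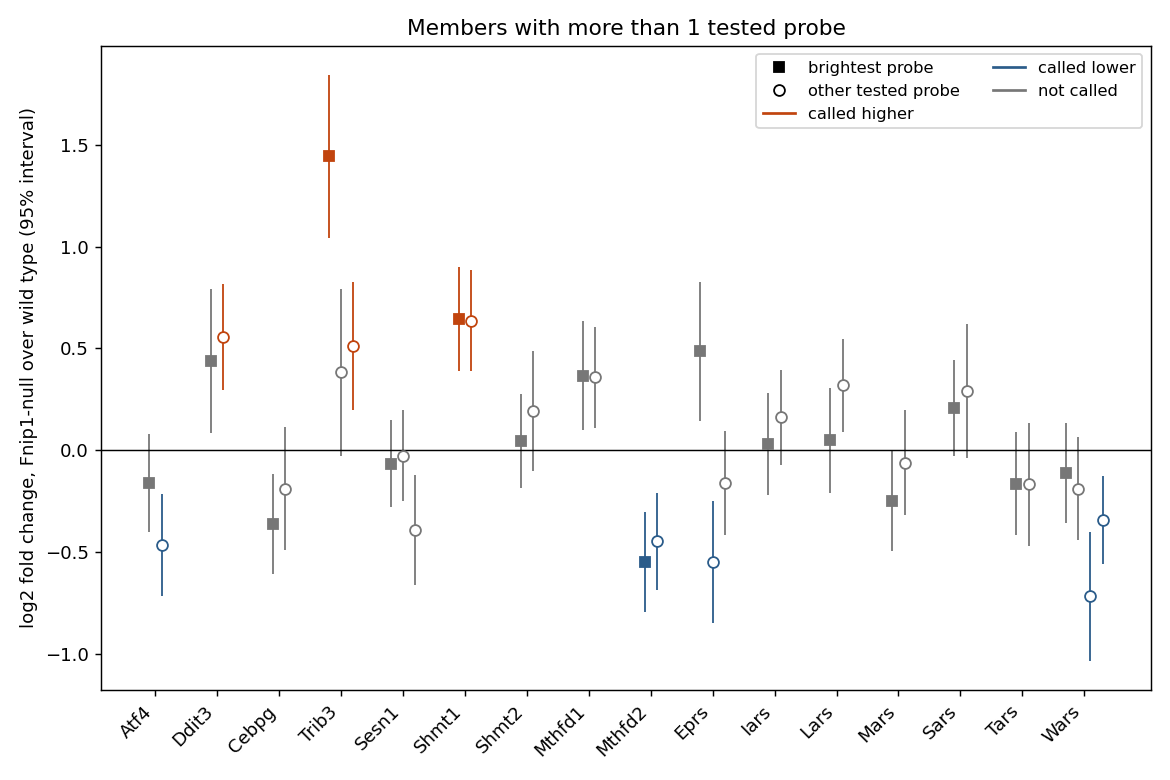
Log2 fold change (arrays labelled Fnip1-null over wild type, y axis, 95% intervals) of every tested probe for the 16 members with more than 1 tested probe. Squares are the brightest probe of a gene. Shmt1, Mthfd1 and Mthfd2 agree between probes, whereas the Eprs probes fall on both sides of 0.

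Other genes of these routes were read from lists of the same kind. Of 22 tested further genes of the integrated stress response, Slc6a9 and Vegfa rose and Ppp1r15b fell, with a list median of -0.03. Over all tested genes 7.86% were called higher and 5.25% lower. Slc6a9, the glycine transporter gene GLYT1, read 6.48, 5.86 and 6.19 on the arrays labelled Fnip1-null and 5.18, 5.41 and 4.81 on the wild-type arrays, without overlap and 2.06-fold higher (adjusted p = 0.00718). Its log2 fold change of 1.04 was 0.60 without background correction, 0.62 with the offset of 50 and 1.63 in the authors' processed values. The call was lost under 2 of 17 alternatives, with adjusted p of at most 0.064. Vegfa, the endothelial growth factor gene, rose by 0.62 (adjusted p = 0.0188), and this call was lost when array B of the Fnip1-null label was left out (0.0691), or B or C of the wild-type label (0.0649 and 0.0596), and under 5 of 17 alternatives in all, with adjusted p of at most 0.0807. The 5 tested subunits of eIF2B, the exchange factor that phosphorylated eIF2alpha blocks, lay between -0.09 and -0.02, and none passed. None of 9 tested further cytosolic synthetases and cofactors was called (limma; list median 0.00, lowest adjusted p = 0.267).

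Of 14 tested further folate and purine genes 3 rose and none fell, with a list median of 0.19. Of all tested genes 7.86% were called higher and 5.25% lower. Fpgs, which retains folate in cells by adding glutamate tails, read 10.20, 10.37 and 10.23 on the arrays labelled Fnip1-null and 9.75, 9.71 and 9.70 on the wild-type arrays, a 1.46-fold rise without overlap (adjusted p = 0.00775). Gart and Atic, the purine synthesis enzymes that use formyl-folate, rose by 0.40 and 0.39 on the log2 scale (adjusted p = 0.0454 and 0.049). Both calls were marginal. That of Gart was lost without any array except A labelled wild type, and that of Atic without any array except A labelled Fnip1-null. Of 16 tested mitochondrial synthetases Tars2 and Lars2 rose (0.48 and 0.41, adjusted p = 0.0246 and 0.0447), none fell, and the list median was 0.16. These counts stand beside the same shares of all tested genes. Tars2 was not called without A, B or C labelled Fnip1-null or without B or C labelled wild type, and Lars2 was not called without B or C labelled Fnip1-null or without any of the wild-type arrays.

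**Figure D4:**
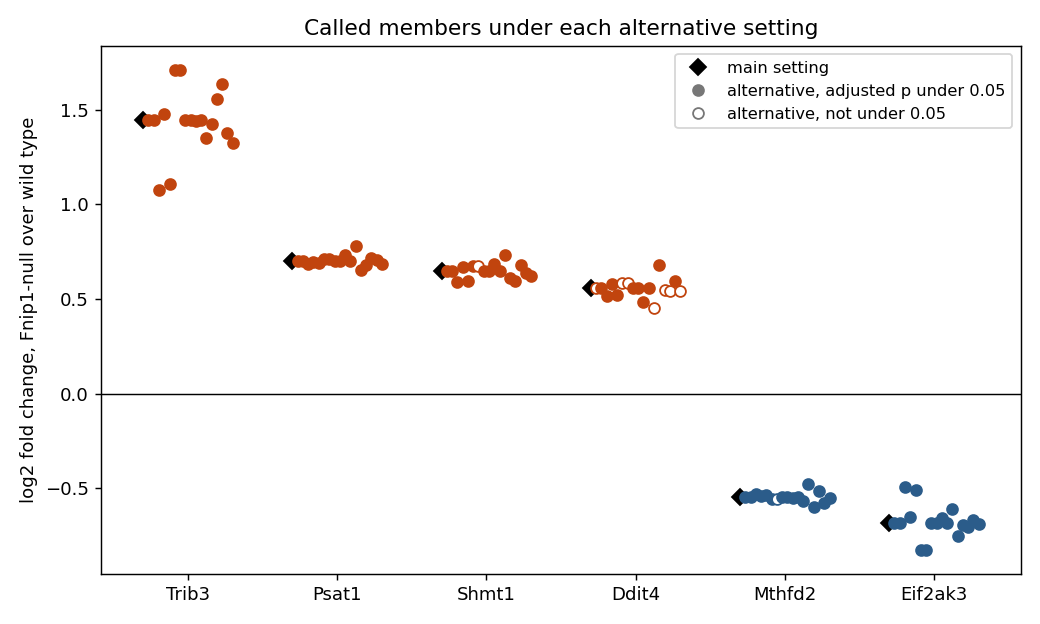
Log2 fold change (arrays labelled Fnip1-null over wild type, y axis) of the 6 called members in the main setting (diamonds) and under 17 alternative settings (circles, open where the adjusted p was not under 0.05). Trib3, Psat1 and Eif2ak3 kept their call throughout, Shmt1 and Mthfd2 lost it once each, and Ddit4 lost it 7 times.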

How the data were processed

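The deposited scanner output gives 45281 probes per array. Per the file headers, these are intensity values without normalization, and each comes with a p-value of detection. A second deposited table holds the authors' processed values, taken as log2 from their range of 0.28 to 15.26, with an unstated background correction and log base. The submitters' processing notes name affy. Scanner columns are headed KO or WT with an unexplained number, but without the gene's name or a replicate number. KO columns were taken as Fnip1-null. Intensities were background corrected (normexp from the detection p-values, offset 16), quantile normalized and log2 transformed (neqc, limma 3.58.1, R 4.3.3). Probes detected (p under 0.05) on 3 arrays or more, 18172 in all, were fitted with lmFit and eBayes (9.17 degrees of freedom), with Benjamini-Hochberg adjustment over all of them. The fit was tested on simulated data.

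Probes were named by the 2016 platform annotation, updated through RefSeq GRCm38.p6. Of all probes 34885 had 1 symbol, 18 several and 10378 none. "At least" folds set a group with undetected arrays at the lowest detected signal of each array or the probe's own, whichever is higher. The members and lists were chosen with earlier results of these data known. Members described by array are those called, a fixed set of key genes and the member of lowest p in each subgroup. Up to 3 called genes per other list were named. Further members, and the eIF2B subunits, were added after their values were seen. Alternatives changed the filter, background, scaling, offset, probe, moderation, weights, sex block, value table and the arrays included.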

Additional observations from a re-analysis of the deposited data

How the results depend on the processing

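No paired analysis was made on the scanner columns, because the number in each header is not explained and none is given as a replicate number. The series matrix does carry replicate numbers, and same-numbered samples there correlated at 0.17, -0.0032 and 0.23 in their deviations from the group means. Samples 1 and 3 labelled Fnip1-null correlated best with their own number, and sample 2 did not. With 3 samples per group this cannot decide whether the numbers pair the samples. Fits with and without the replicate block are therefore given for the series matrix values. In those values with the replicate block, 376 genes were higher and 250 lower, against 547 and 360 in the same values without it (761 and 508 in the main setting), and 2 members were higher (Trib3 and Psat1) and 1 lower (Eif2ak3). Leaving out 1 array gave between 449 and 565 higher and between 303 and 396 lower genes, the fewest without array B labelled Fnip1-null, and 481 and 325 without array B labelled wild type. Members called higher numbered 7 with sex as a block. Members called lower numbered 5 with the probe of largest variance (Atf4, Eprs and Wars added) and 4 with array weights (Cebpb and Cebpg added), settings in which 676 and 622 of all genes were called lower. Eprs turned from 0.49 to -0.55 with the probe of largest variance, which is another probe. The causes of the other changes were not tested. The median of all genes moved by less than 0.1 under every setting. Fnip1 was called higher under all 16 of its alternatives. Members near the array background (Chac1, Pck2, Psph, Vldlr and Eif2ak4) were not detected on any array, so a difference in them could not be seen here.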
